A study of Mus musculus with 24 samples.

Results

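Type I interferon-stimulated genes were followed in mouse hearts after a stroke of the brain. The genes came from a list of 34 symbols that cover the transcription factors, nucleic acid sensors and antiviral effectors induced by type I interferon. A gene was included when its symbol named a row of the deposited expression table in the platform annotation, and 33 of the 34 symbols did so, out of 24011 named genes in all. Ifi44 was not analysed here. The rule used gene names and no measured value, but the list itself was chosen with earlier results of these data known.

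The animals were 8-week-old C57BL/6J mice, with no transgene or deletion named in the labels. An ischemic stroke was set by middle cerebral artery occlusion (MCAO), or the animals had a sham operation, and their hearts were taken 24 h or 72 h later. The 4 groups, MCAO 24 h, sham 24 h, MCAO 72 h and sham 72 h, held 6 Affymetrix arrays each, 24 in all. Whether each array stands for its own animal is not stated, so the p-values reflect the spread of these samples, part of which may be technical. The comparisons ask how the hearts of MCAO animals differ from those of sham animals at each time. All values are the deposited log2 expression values, on which a step of 1 is a doubling, and the level of one gene is not set against that of another.

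Type I interferons (interferon alpha and beta) bind a receptor shared by nearly all cells, which activates the kinases JAK1 and TYK2. These phosphorylate STAT2, which works with IRF9 in the complex ISGF3. ISGF3 binds the interferon-stimulated response element (ISRE) in promoters and turns on antiviral genes, among them the members described here. In the heart this program is known from viral myocarditis and from the response of macrophages to dying cardiomyocytes.

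The binding motif of ISGF3 was looked for in the promoters of the members, to show which of them carry it close to their start. Of the 33 measured members, 24 had a window in the RefSeq promoter table (GRCm38.p6), which spans 250 bases before to 50 bases after an annotated start. The ISRE core, GAAA and GAAA with any 2 bases between them (TTTC and TTTC on the opposite strand), was present for 14 of the 24 members (58.3%), against 3.99% of 27018 genes with windows of the same length in the table. Counted by window, it was 15 of 28 against 3.44% of 32841. Of the IFIT genes on chromosome 19, Ifit3 lies between Ifit2 and Ifit1. The windows of 4 members are printed here because their genes differed in the adjusted test at 24 h: Bst2 and Oas3 fell, Ifit2 rose, and Ifit1 did not pass. The result for Oas3 did not hold in every fit, and whether the motif bears on these changes was not tested. Each is written 5′ to 3′ on the strand of its gene, and capitals mark the ISRE core on either strand. The windows are chr8:71537423-71537722 on the minus strand for Bst2, chr5:120777610-120777909 on the minus strand for Oas3, chr19:34550444-34550743 on the plus strand for Ifit2 and chr19:34640639-34640938 on the plus strand for Ifit1.
Bst2: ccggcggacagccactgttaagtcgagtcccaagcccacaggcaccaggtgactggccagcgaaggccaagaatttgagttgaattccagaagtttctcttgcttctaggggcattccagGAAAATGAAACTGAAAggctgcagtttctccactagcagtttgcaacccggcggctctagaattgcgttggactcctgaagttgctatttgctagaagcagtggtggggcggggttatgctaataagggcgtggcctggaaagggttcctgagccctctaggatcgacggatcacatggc
Oas3: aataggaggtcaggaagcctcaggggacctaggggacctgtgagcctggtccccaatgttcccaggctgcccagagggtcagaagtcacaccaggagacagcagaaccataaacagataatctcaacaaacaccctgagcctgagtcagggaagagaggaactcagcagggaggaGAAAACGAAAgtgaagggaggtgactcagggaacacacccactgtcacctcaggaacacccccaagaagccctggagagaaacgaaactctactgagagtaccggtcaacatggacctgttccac
Ifit2: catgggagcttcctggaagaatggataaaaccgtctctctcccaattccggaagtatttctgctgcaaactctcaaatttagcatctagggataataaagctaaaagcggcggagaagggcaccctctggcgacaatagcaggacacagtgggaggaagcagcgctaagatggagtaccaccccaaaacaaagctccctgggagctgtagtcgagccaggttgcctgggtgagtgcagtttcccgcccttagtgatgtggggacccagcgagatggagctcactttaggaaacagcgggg
Ifit1: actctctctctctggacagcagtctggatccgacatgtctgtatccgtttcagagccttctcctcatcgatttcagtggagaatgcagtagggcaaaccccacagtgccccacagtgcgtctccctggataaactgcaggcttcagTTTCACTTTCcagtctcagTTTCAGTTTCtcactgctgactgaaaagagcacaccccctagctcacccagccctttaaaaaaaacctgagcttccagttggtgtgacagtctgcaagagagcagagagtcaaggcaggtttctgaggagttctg

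Bst2 held 2 overlapping cores, whose first bases lie 130 and 124 bases before the start. Oas3 held 1, at 75 bases before the start, and Ifit1 held 2 on the opposite strand, at 104 and 85 bases before it. Ifit2 held no ISRE core in the printed window or in its second annotated window, and Samd9l held none in its single window. A match is a description of these letters only. Isg15 held 3 overlapping cores, at 78, 72 and 66 bases before the start.

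**Figure D1:**
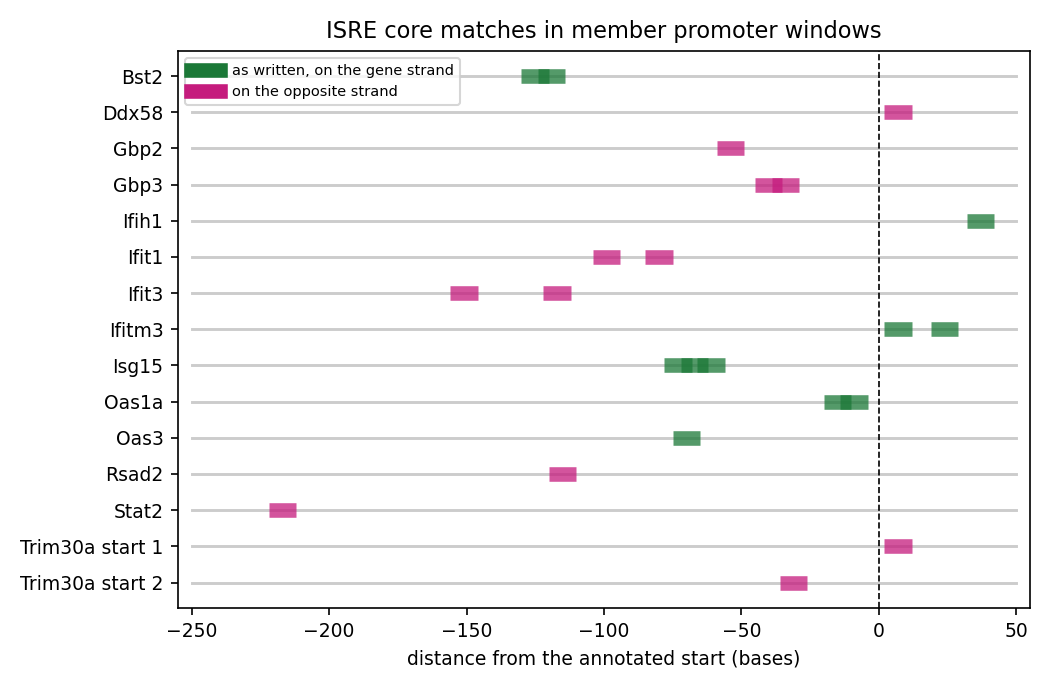
Positions of the ISRE core in the promoter windows of the 14 members that held it, with distance from the annotated start in bases on the x axis (negative is before the start) and 1 line per window. Green marks the core as written on the strand of the gene and magenta the core on the opposite strand. Bst2 carries 2 overlapping cores, and Trim30a has 2 annotated starts with 1 core each.

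The hearts carried strong cardiomyocyte signal on every array: the mean of 8 cardiomyocyte markers (among them Myh6, Tnnt2 and Actn2) lay between 12.3 and 12.7 on the log2 scale. Arrays correlated with the rest of their group across genes at r of 0.971 to 0.997, with MCAO 24 h replicates 6 and 5 lowest at 0.971 and 0.976. One sham array stood apart for the members. In sham 72 h replicate 2, 32 of 33 members were above the mean of the other 5 arrays of the group, by a median of 0.78, and 28 were the highest of the 6 arrays, as were 17.3% of all genes. All 11 measured monocyte and macrophage markers were also highest on that array, by a median of 0.84. It serves as a control at 72 h, so many 72 h values are also given without it. Where no such value is given, the 72 h change includes this array.

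At 24 h after MCAO the members did not move as one group. Bst2, Oas3 and Samd9l fell, Ifit2 rose, and the other 29 did not pass the test (limma, Benjamini-Hochberg adjusted over all genes, threshold 0.05). Of all genes tested, 21.8% passed the threshold at this time, 11.1% higher and 10.8% lower, so 4 of 33 members is a smaller share than that background. The median log2 change of the members was -0.04, against 0.01 over all genes, and 20 of 33 were below 0. Without adjustment, 2 members were higher and 4 lower at p below 0.05, against 17.9% and 16.7% of all genes. In whole-heart RNA, fewer cells of a type and less RNA per cell cannot be told apart.

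At 72 h the members lay lower in MCAO hearts than in sham hearts almost throughout, but Bst2 was the only one that passed the test. Of the 33 members, 31 had a log2 change below 0, against 49.2% of all genes, and the median was -0.29, against 0.00 over all genes. No member rose and 1 fell. Of all genes, 2.35% passed the threshold at 72 h, 1.17% higher and 1.19% lower. Without adjustment, 12 members were lower at p below 0.05 and 0 were higher, against 5.40% and 5.54% of all genes. Without sham 72 h replicate 2 the median was -0.16, 28 of 33 members were below 0 and 6 were lower at an unadjusted p below 0.05 (5.06% of all genes under that fit), namely Bst2, Ifi27l2a, Ifit1, Isg15, Oas2 and Parp14. Bst2 again was the only member that fell. The share of all genes below 0 in that fit is not given here. Members tended to be high together on single arrays, so the counts below 0 are not counts of independent genes.

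**Figure D2:**
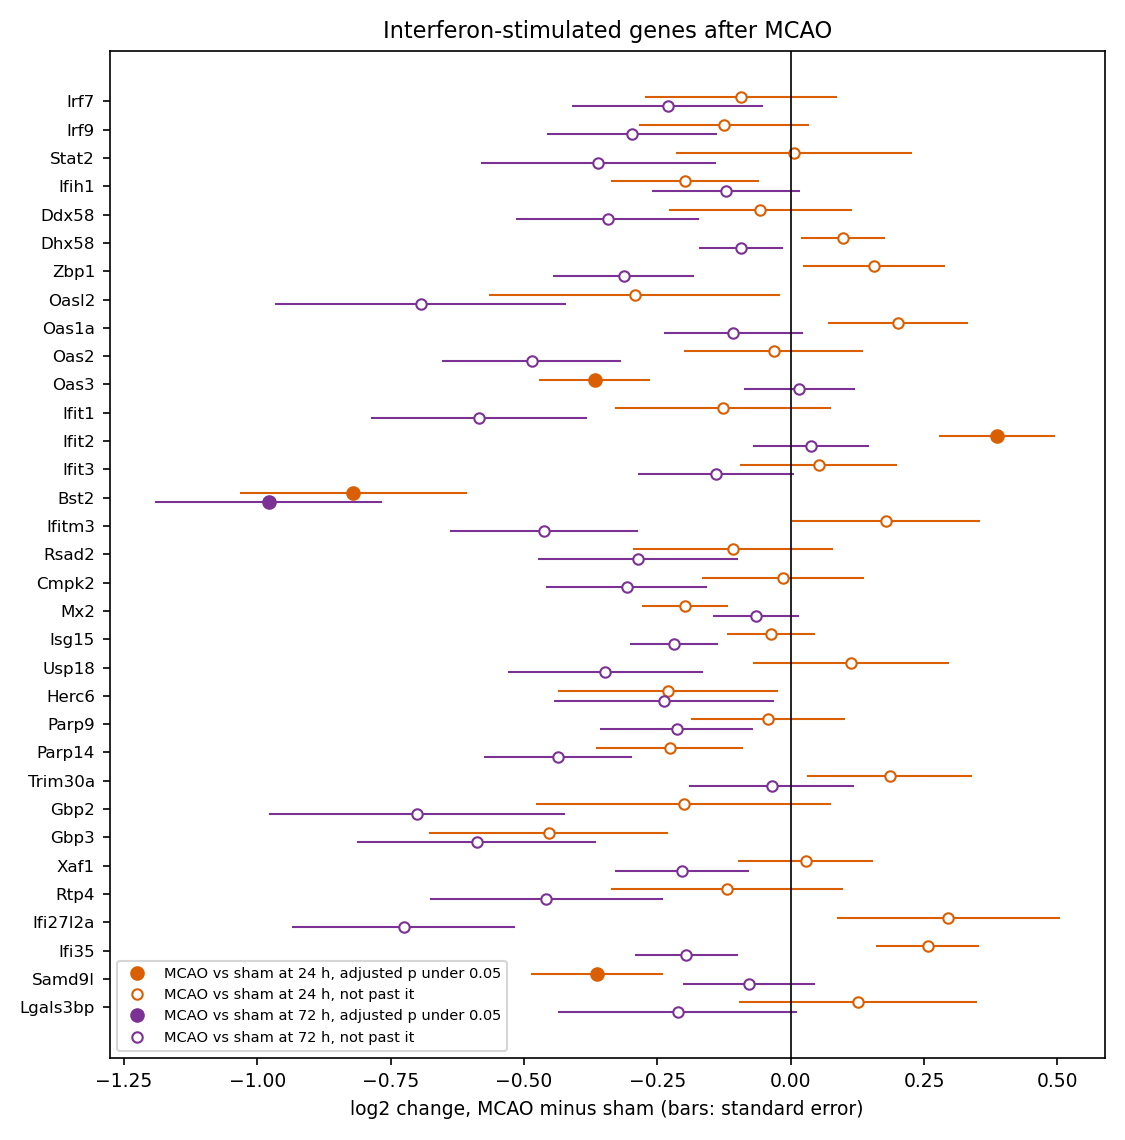
Log2 change of each of the 33 members, MCAO minus sham, at 24 h (orange) and at 72 h (purple), with bars for the standard error (6 arrays per group) and filled points for an adjusted p under 0.05. Filled points are Bst2 at both times and Oas3, Samd9l and Ifit2 at 24 h, and 31 of the 33 purple points lie left of 0.

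Among the 5 members placed under membrane and virion restriction, a loose role, Bst2 showed the clearest difference. It encodes tetherin, a membrane protein that holds budding virus particles on the cell surface. The lowest, median and highest log2 values were 7.34, 7.47 and 7.78 in sham 24 h hearts and 6.38, 6.66 and 7.06 in MCAO 24 h hearts. They were 7.41, 7.64 and 9.06 in sham 72 h hearts and 6.21, 6.93 and 7.32 in MCAO 72 h hearts. All 12 MCAO arrays lay below all 12 sham arrays, with a highest MCAO value of 7.32 and a lowest sham value of 7.34. This was true of 1 member and of 46 of all genes (0.192%).

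Bst2 fell by 0.82 at 24 h (SE 0.21, limma adjusted p = 0.00841), a 1.77-fold lower level, and by 0.98 at 72 h (SE 0.21, adjusted p = 0.0104), a 1.97-fold lower level. Without sham 72 h replicate 2, where Bst2 was at 9.06, the fall at 72 h was 0.74 (adjusted p = 0.0102). With limma array weights the adjusted p at 24 h was 0.071, and with a block for replicate number that at 72 h was 0.0637.

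The other members placed under this role, which is loose for Mx2 and Cmpk2, did not pass the test in either MCAO comparison. Ifitm3, which hinders virus entry at endosomal membranes, ranged over 9.26, 9.70 and 9.90 (lowest, median, highest) in sham 24 h, 9.36, 9.74 and 10.53 in MCAO 24 h, 9.46, 9.74 and 10.35 in sham 72 h, and 9.11, 9.23 and 9.58 in MCAO 72 h. Its change was 0.18 at 24 h and -0.46 at 72 h (adjusted p = 0.231), and its groups overlapped at both times. Mx2, a gene of the dynamin-like GTPase family, lay at 3.66, 3.84 and 3.93 in sham 24 h and 3.35, 3.66 and 3.78 in MCAO 24 h, a change of -0.20 (adjusted p = 0.08). At 72 h its values were 3.62, 3.70 and 4.06 in sham and 3.59, 3.68 and 3.92 in MCAO. Rsad2 (viperin) and Cmpk2, its neighbour on chromosome 12, had log2 changes of -0.11 and -0.01 at 24 h and of -0.29 and -0.31 at 72 h, with no adjusted p under the threshold. Without sham 72 h replicate 2 the 72 h changes were -0.18 and -0.22, that of Ifitm3 was -0.35 and that of Mx2 was -0.01.

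The IFIT proteins bind foreign RNA and stop its translation, and their genes gave values of both signs. Ifit2 was at 3.77, 4.05 and 4.25 (lowest, median, highest) in sham 24 h hearts and at 4.20, 4.38 and 4.75 in MCAO 24 h hearts, with only the top of the sham range reaching into the MCAO range. It rose by 0.39 (SE 0.11, adjusted p = 0.0138), and this call held in all 24 fits that left out 1 array. At 72 h Ifit2 was at 3.81, 4.02 and 4.39 in sham and 3.86, 4.09 and 4.25 in MCAO, a change of 0.04, so the 2 groups covered the same range. Ifit1 was at 4.57, 4.97 and 5.14 in sham 24 h and 4.48, 4.57 and 5.30 in MCAO 24 h. At 72 h it was at 4.62, 5.06 and 6.17 in sham and 4.23, 4.56 and 4.78 in MCAO, a change of -0.58 that did not pass the test and became -0.38 without sham 72 h replicate 2. Ifit3 had log2 changes of 0.05 at 24 h and -0.14 at 72 h, neither past the threshold.

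The oligoadenylate synthetases sense double-stranded RNA and make short oligoadenylates that activate RNase L. Oas3 was at 4.01, 4.23 and 4.41 in sham 24 h and at 3.46, 3.97 and 4.30 in MCAO 24 h, where 2 of the 6 arrays, replicates 5 and 6, lay well below the others. Oas3 fell by 0.37 (SE 0.10, adjusted p = 0.0147). Without those 2 arrays, the least like their group, the change was -0.17 and the adjusted p was 0.0943. The adjusted p was 0.111 with array weights and 0.109 with only the 24 h groups in the fit. At 72 h Oas3 was at 4.11, 4.13 and 4.31 in sham and 4.12, 4.19 and 4.27 in MCAO, a change of 0.02.

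Oas1a was at 3.30, 3.39 and 3.65 in sham 24 h and 3.05, 3.59 and 4.29 in MCAO 24 h, a change of 0.20 (adjusted p = 0.285). Without MCAO 24 h replicates 5 and 6 that change was 0.36 (adjusted p = 0.0361), and without MCAO 24 h replicate 3 it was 0.07 (adjusted p = 0.684). At 72 h its values were 3.34, 3.54 and 3.61 in sham and 3.20, 3.34 and 3.76 in MCAO. Oasl2, an oligoadenylate synthetase-like gene, was at 5.0, 5.66 and 6.01 in sham 24 h, 4.84, 5.14 and 6.29 in MCAO 24 h, 5.13, 5.33 and 6.96 in sham 72 h and 4.61, 4.89 and 5.52 in MCAO 72 h. Its change at 72 h was -0.69 with all arrays and -0.43 without sham 72 h replicate 2, and neither passed the test. Oas2 had log2 changes of -0.03 at 24 h and -0.49 at 72 h (adjusted p = 0.163). The 72 h change lay between -0.57 and -0.39 when single arrays were left out.

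Among members whose products are less well placed in the pathway, Samd9l fell at 24 h. Samd9l restrains cell growth and poxvirus replication. It was at 4.24, 4.65 and 4.90 in sham 24 h and 3.75, 4.35 and 4.65 in MCAO 24 h, and it fell by 0.36 (SE 0.12, adjusted p = 0.0381). The groups overlapped, and the call was lost in 8 of the 24 fits without 1 array: without MCAO 24 h replicate 2, 4 or 5 the adjusted p was 0.0729, 0.0818 and 0.0963, and without sham 24 h replicate 1, 2, 3, 4 or 6 it was 0.0827, 0.0583, 0.0559, 0.0915 and 0.0569. It was also lost with only the 24 h groups in the fit (limma adjusted p = 0.167) and without MCAO 24 h replicates 5 and 6 (0.0564). At 72 h Samd9l was at 4.71, 4.79 and 5.01 in sham and 4.62, 4.73 and 4.88 in MCAO.

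Ifi27l2a, which encodes a small hydrophobic protein, was at 3.45, 4.03 and 4.50 in sham 24 h, 3.80, 4.15 and 5.12 in MCAO 24 h, 3.80, 4.25 and 4.79 in sham 72 h and 3.15, 3.56 and 3.90 in MCAO 72 h. Only 1 sham 72 h array, replicate 4 at 3.80, reached down into the MCAO 72 h range. Its change was 0.30 at 24 h (SE 0.21, adjusted p = 0.332) and -0.73 at 72 h (SE 0.21, adjusted p = 0.0699). The adjusted p at 72 h became 0.0439 without sham 72 h replicate 4, 0.031 without MCAO 24 h replicate 3, 0.0124 with only the 72 h groups in the fit and 0.00933 with array weights. In the other 22 fits without 1 array it stayed above the threshold, at up to 0.18 (without sham 72 h replicate 2, where the change was -0.62).

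Ifi35, a partner of the interferon-induced protein NMI, was at 5.99, 6.30 and 6.54 in sham 24 h and 6.26, 6.52 and 6.77 in MCAO 24 h. Its change of 0.26 (SE 0.10) missed the threshold at an adjusted p of 0.0598, and passed it without MCAO 24 h replicate 6 (0.0209), without sham 24 h replicate 5 (0.0293) and without MCAO 24 h replicates 5 and 6 (0.0497). At 72 h it was at 6.19, 6.44 and 6.59 in sham and 5.96, 6.27 and 6.35 in MCAO. The remaining members of this kind, Xaf1, Rtp4 and Lgals3bp, had log2 changes of 0.03, -0.12 and 0.13 at 24 h and of -0.20, -0.46 and -0.21 at 72 h, none past the threshold. Without sham 72 h replicate 2 the 72 h values were -0.16, -0.27 and 0.04, so that of Lgals3bp changed sign.

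**Figure D3:**
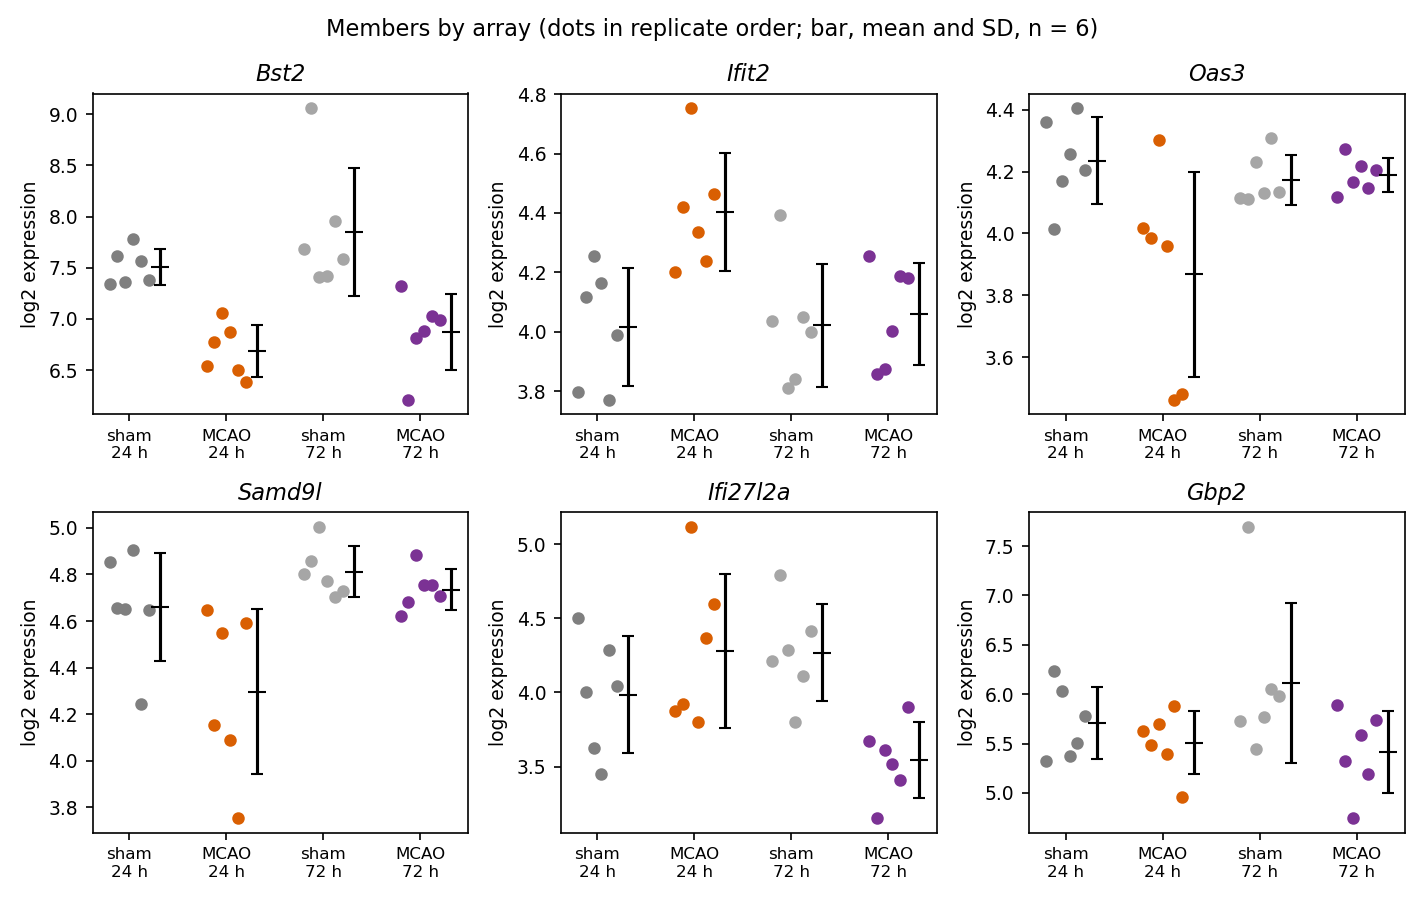
Log2 expression of Bst2, Ifit2, Oas3, Samd9l, Ifi27l2a and Gbp2 on each array (y axis, 1 dot per array in replicate order, 6 per group) with the mean and SD of each group as a bar. The MCAO dots of Bst2 all lie below its sham dots, MCAO 24 h replicates 5 and 6 form the low pair of Oas3, and sham 72 h replicate 2 is the high dot of Bst2 and Gbp2.

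The guanylate-binding proteins are GTPases that attack the membranes of vacuoles holding microbes, and both measured genes were lower at 72 h by values that rested partly on 1 control array. Gbp2 was at 5.33, 5.64 and 6.23 in sham 24 h, 4.96, 5.56 and 5.88 in MCAO 24 h, 5.44, 5.88 and 7.70 in sham 72 h and 4.74, 5.46 and 5.89 in MCAO 72 h. Its change was -0.20 at 24 h and -0.70 at 72 h, and without sham 72 h replicate 2, the array at 7.70, it was -0.38 (adjusted p = 0.563). Gbp3 was at 3.96, 4.61 and 4.97 in sham 24 h, 3.80, 4.15 and 4.46 in MCAO 24 h, 4.41, 4.74 and 6.03 in sham 72 h and 3.94, 4.15 and 5.07 in MCAO 72 h. Its change was -0.45 at 24 h (adjusted p = 0.153), and -0.59 at 72 h, or -0.36 without that array. Neither gene passed the test at either time.

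The transcription factors and sensors that start and sustain the response did not pass the test. Irf7, the main inducer of interferon alpha genes, had log2 changes of -0.09 at 24 h and -0.23 at 72 h. Irf9 and Stat2, the DNA-binding and activating parts of ISGF3, had log2 changes of -0.12 and 0.01 at 24 h and of -0.30 and -0.36 at 72 h. The RNA sensors Ifih1 (MDA5), Ddx58 (RIG-I) and Dhx58 (LGP2) lay between -0.20 and 0.10 at 24 h and between -0.34 and -0.09 at 72 h. Without sham 72 h replicate 2 the 72 h changes were -0.05 for Irf7, -0.15 for Irf9 and -0.13 for Stat2. They were then 0.02 for Ifih1, which changed sign, -0.21 for Ddx58 and -0.04 for Dhx58.

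Zbp1, a sensor of Z-form nucleic acids that can trigger necroptosis, was one of 2 members whose MCAO 72 h arrays all lay below the sham 72 h arrays, the other being Bst2. Over all genes 1.77% were apart in that direction at 72 h, and 1.77% in the other. Zbp1 was at 4.04, 4.15 and 5.0 in sham 72 h and at 3.88, 3.96 and 4.00 in MCAO 72 h. Its change of -0.31 did not pass the test, and without sham 72 h replicate 2, at 5.0, it was -0.17. At 24 h the ranges of Zbp1 overlapped, at 3.85 to 4.26 in sham and 3.70 to 4.47 in MCAO, and Bst2 was the only member whose groups were apart (2.65% of all genes were apart and lower, and 2.88% apart and higher).

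A further 6 members belong to ISG15 conjugation or related ubiquitin and ADP-ribose chemistry, and none passed the test at either time. Isg15, the ubiquitin-like modifier itself, had log2 changes of -0.04 at 24 h and -0.22 at 72 h. Usp18, which removes ISG15 and dampens the receptor, had log2 changes of 0.11 and -0.35, and Herc6, the main ISG15 ligase of the mouse, by -0.23 and -0.24. The ADP-ribosyltransferase family genes Parp9 and Parp14 had log2 changes of -0.04 and -0.23 at 24 h and of -0.21 and -0.44 at 72 h. Without sham 72 h replicate 2 the 72 h changes were -0.19 for Isg15, -0.15 for Usp18, -0.11 for Herc6, -0.07 for Parp9 and -0.29 for Parp14. Trim30a, a ubiquitin ligase gene, was at 3.36, 4.00 and 4.23 in sham 24 h, 3.77, 4.17 and 4.42 in MCAO 24 h, 3.34, 3.96 and 4.34 in sham 72 h and 3.74, 3.86 and 4.21 in MCAO 72 h. Its groups overlapped at both times, and its 72 h change went from -0.04 to 0.04 without sham 72 h replicate 2.

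The change of the MCAO effect between the times was tested directly, and no member passed. The median of the member differences (72 h effect minus 24 h effect) was -0.23, with 29 of 33 below 0. Of all genes 1.79% passed this test, 0.991% higher and 0.800% lower. Without adjustment 1 member was higher and 5 were lower, against 8.65% and 8.98% of all genes. Ifi27l2a had the most negative difference, -1.02 (SE 0.30, adjusted p = 0.0713), which passed without MCAO 24 h replicate 1 (0.0403). By adjusted p Ifi35 came next, with a difference of -0.45 (SE 0.14, adjusted p = 0.0826), which passed without MCAO 24 h replicate 6 (0.0364). The Ifit2 effect, called at 24 h and not at 72 h, had a difference of -0.35 (adjusted p = 0.234), so its effects at the 2 times were not shown to differ.

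Set against each other, MCAO hearts at 72 h and at 24 h differed for 4 members. This comparison shares the MCAO arrays with the comparisons above. Samd9l rose by 0.44 (adjusted p = 0.0261), and Ifi27l2a fell by 0.74 (adjusted p = 0.0267), Ifit2 by 0.34 (adjusted p = 0.0454) and Ifi35 by 0.31 (adjusted p = 0.045). Of all genes 10.4% passed, 5.04% higher and 5.36% lower. Without MCAO 24 h replicate 3 none of the 3 falls passed: Ifi27l2a had an adjusted p of 0.0592, Ifit2 of 0.0993 and Ifi35 of 0.0932. Between 0 and 5 members fell and between 0 and 2 rose when single arrays were left out, with 5 falls without sham 72 h replicate 2. Of the 24 fits without 1 array, the call was lost in 14 for Ifit2 (adjusted p up to 0.104), in 15 for Ifi35 (up to 0.112), in 3 for Ifi27l2a (MCAO 24 h replicate 3 and MCAO 72 h replicates 2 and 5, up to 0.0641) and in 4 for Samd9l (MCAO 24 h replicates 2, 4 and 5 and MCAO 72 h replicate 3, up to 0.0611). The fit on the MCAO groups alone gave 0 members in either direction.

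Between the sham groups, 72 h against 24 h, 0 members passed in limma and 0 were past an unadjusted p of 0.05, against 0.0208% of all genes by the adjusted test and 1.87% higher and 1.82% lower without adjustment. The median member change was 0.07, and it was -0.02 without sham 72 h replicate 2.

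The members had a higher median SD between arrays than all genes in each group. It was 0.335 in MCAO 24 h, against 0.218 over all genes, 0.192 against 0.105 in MCAO 72 h, 0.199 against 0.130 in sham 24 h and 0.336 against 0.114 in sham 72 h. In 3 of the groups 1 array was the highest for most members. In sham 24 h no array was. There replicates 2, 3 and 4 were above the mean of the other 5 for 26, 20 and 21 of 33 members. Their medians were 0.15, 0.06 and 0.05 above, and they were highest for 7, 9 and 12. Further arrays were above for most members, namely MCAO 24 h replicate 5 (20 of 33) and MCAO 72 h replicates 4 and 6 (20 and 19). Sham 72 h replicate 2 had the largest excess, led by Gbp2 (1.90 above the mean of the other 5 arrays), Oasl2 (1.57), Lgals3bp (1.5) and Bst2 (1.45). Oas3, at -0.07, was the 1 member below that mean.

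In MCAO 24 h replicate 3, 31 of 33 members were above the mean of the other 5 arrays, by a median of 0.40, and 20 were the highest of the group, as were 11.8% of all genes. Rtp4 (1.23), Oasl2 (1.17), Ifi27l2a (1.01), Ifitm3 (0.82) and Oas1a (0.81) led. Without this array the median member change at 24 h was -0.11. In MCAO 72 h replicate 1, 28 of 33 were above the mean of the others, by a median of 0.28, and 20 were highest (16.3% of all genes), led by Gbp3 (0.93), Ddx58 (0.69) and Oasl2 (0.68). The lists that moved with each array differed. The monocyte and macrophage markers were above for 11 of 11 on sham 72 h replicate 2, for 7 of 11 on MCAO 24 h replicate 3 (median 0.00) and for 5 of 11 on MCAO 72 h replicate 1 (median -0.02). The genes of MHC class I antigen presentation were above for 10 of 10 (median 0.76), 5 of 10 (median 0.02) and 10 of 10 (median 0.32) on the same arrays. The neutrophil markers were above for 1 of 6 (median -0.13), 4 of 6 (median 0.27) and 5 of 6 (median 0.36). Whether these lists bear on the member values was not tested.

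**Figure D4:**
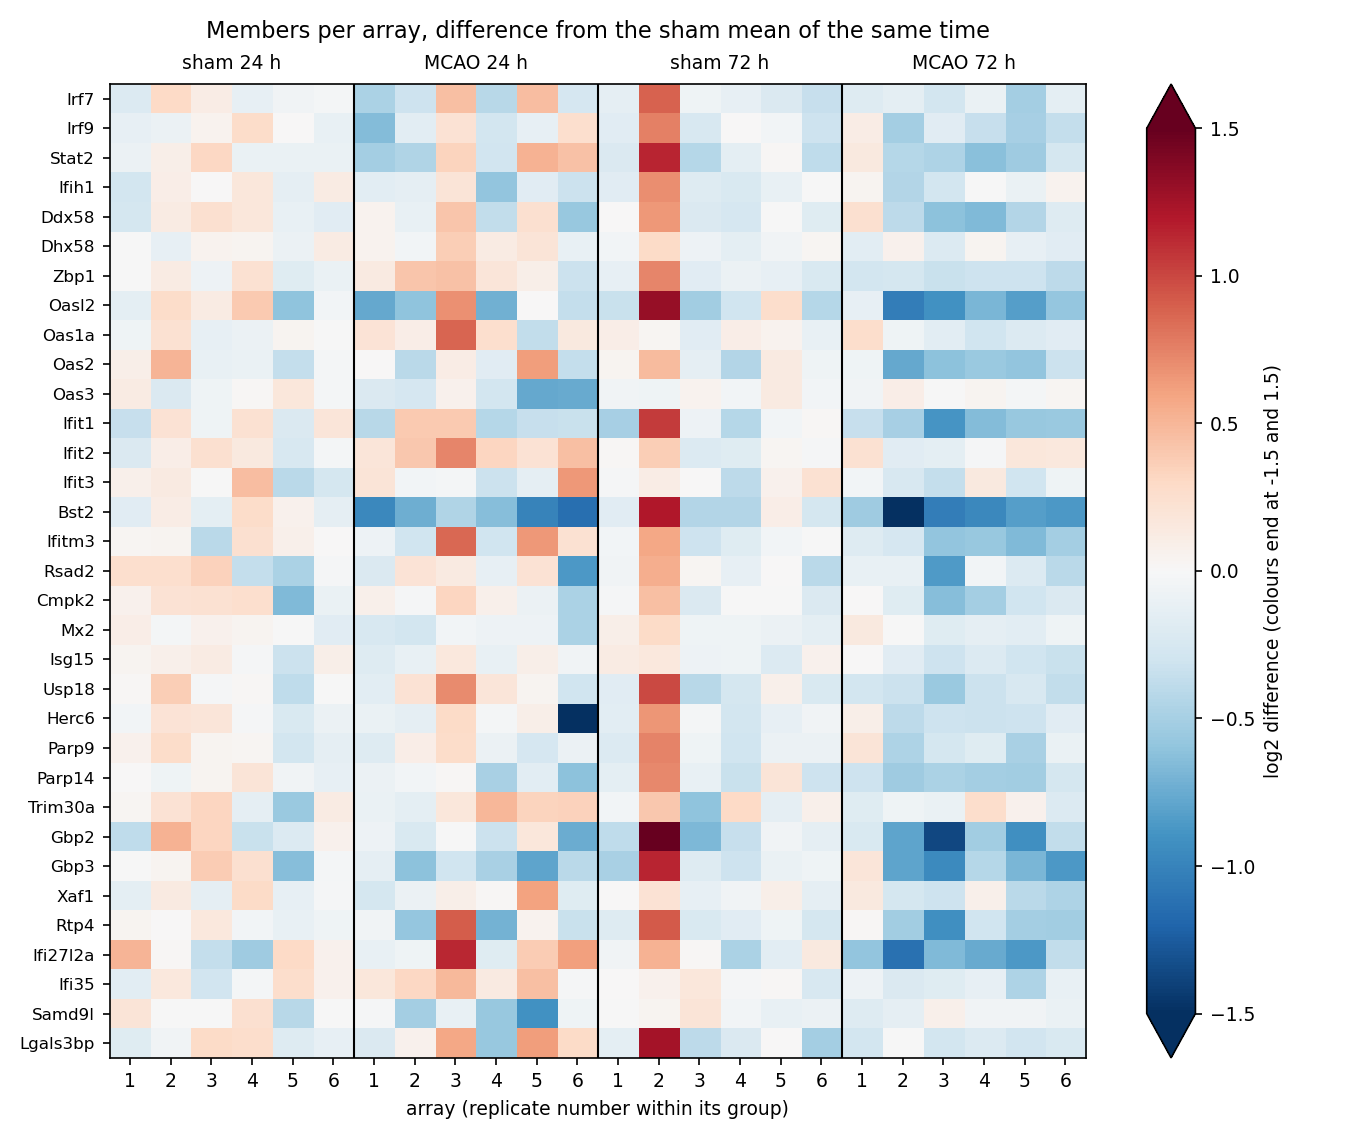
Each of the 33 members (rows) on each of the 24 arrays (columns, by group and replicate number), coloured by log2 difference from the sham mean of the same time, with colours ending at -1.5 and 1.5. The column of sham 72 h replicate 2 is red for 32 members, in MCAO 24 h replicate 3 a total of 31 members lie above the mean of the other arrays of the group, and the Bst2 row is blue in all 12 MCAO columns.

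The pathway around the members was read from lists of genes that are not members. Counts in these lists, and in the cell marker lists, are to be read against the shares over all genes. Those were 11.1% higher and 10.8% lower at 24 h, and 1.17% and 1.19% at 72 h. No list was tested as a set. Among 17 measured interferon ligand genes, 4 rose and 4 fell at 24 h and none passed at 72 h, where limma gave 0 also at an unadjusted p below 0.05. Ifna4 fell by 0.81 (adjusted p = 0.00239) from 5.96, 6.15 and 6.80 (lowest, median, highest) in sham 24 h to 4.94, 5.56 and 6.04 in MCAO 24 h. Ifna5 fell by 0.67 and Ifng, which encodes interferon gamma, by 0.34, whereas Ifna12 rose by 0.33 and Ifna15 by 0.41. The remaining called ligand genes are not named here. Interferon alpha genes are near-identical copies, so a probe set may take signal from several of them, and their single values are uncertain. Ifnb1 had a log2 change of 0.14 at 24 h (adjusted p = 0.0504) and of -0.03 at 72 h.

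Of 12 measured receptor and signalling genes, 2 rose and 1 fell at 24 h and 1 fell at 72 h. Jak1, a kinase of the type I receptor, fell by 0.45 at 72 h (SE 0.07, adjusted p = 0.000835), from 9.72, 9.87 and 10.10 in sham to 9.31, 9.42 and 9.60 in MCAO, with no overlap. It fell by 0.49 without sham 72 h replicate 2. Both receptor genes stayed short of the threshold: Ifnar1 had log2 changes of -0.00 at 24 h and -0.24 at 72 h, and Ifnar2 by 0.08 and -0.13. At 24 h Jak2 rose by 0.43 and Ifngr1, a chain of the interferon gamma receptor, by 0.32, while Ifngr2, its partner chain, fell by 0.56. The call for Ifngr1 was lost without MCAO 24 h replicates 5 and 6 (adjusted p = 0.203).

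Of 13 nucleic acid sensors and adaptors, Cgas (0.28) and Aim2 (0.24), both sensors of cytosolic DNA, rose at 24 h and none passed at 72 h. Of 8 negative regulators, Ptpn11 (0.60), a phosphatase gene, and Pias1 (0.40), an inhibitor of cytokine signalling, rose at 24 h and the RNA editor Adar (-0.26) fell. Pias1 also rose at 72 h, by 0.48 (adjusted p = 0.0196). Its call at 24 h was lost without MCAO 24 h replicates 5 and 6 (adjusted p = 0.089).

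A wider list held 57 measured interferon-stimulated genes outside the 33 members. Of these, 5 rose and 2 fell at 24 h, and 3 fell at 72 h. Over all genes 21.8% passed at 24 h and 2.35% at 72 h. Helz2, a helicase gene, rose most at 24 h, by 0.91 (SE 0.12, adjusted p = 2.14e-05), from 4.37, 4.61 and 4.77 in sham to 5.14, 5.45 and 6.11 in MCAO. Ifit1bl1 (0.71), Tmem140 (0.58), Oas1b (0.47) and Nmi (0.34) also rose. Ifi203, of the family of DNA-binding interferon-inducible proteins, fell by 0.94 at 24 h (adjusted p = 0.000561) and by 0.81 at 72 h (adjusted p = 0.00897), and Dtx3l, the partner of PARP9, fell by 0.51 at 24 h. At 72 h Uba7, the activating enzyme for ISG15, fell by 0.74 (adjusted p = 0.00553) and Rnf213 by 0.60 (adjusted p = 0.0162). The median of these 57 genes at 72 h was -0.17, with 41 below 0, and without sham 72 h replicate 2 it was -0.06, with the same 3 genes past the threshold.

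Of 10 genes of MHC class I antigen presentation, none passed at 24 h and Psmb10, an immunoproteasome subunit, fell at 72 h by 0.76 (adjusted p = 0.042). Its adjusted p without sham 72 h replicate 2 was 0.0983.

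Markers of cells that carry much of the interferon response were read beside the members. Of 11 measured monocyte and macrophage markers, 1 rose at 24 h, Ly6c2 by 0.99, a marker of inflammatory monocytes, and none passed at 72 h. The other markers mostly lay lower at 24 h: 9 of the 11 were below 0, with a median of -0.25. With all arrays none of the 11 passed the threshold as lower at 24 h. Without MCAO 24 h replicates 5 and 6 the median was -0.37, and C1qa, Cx3cr1 and Mrc1 fell (adjusted p = 0.0249, 0.0162 and 0.0475). The share of all genes that fell in that fit is not given here. The median change at 72 h was -0.30, and -0.15 without sham 72 h replicate 2. The mean of the list per array ranged from 6.30 to 6.64 in sham 24 h, 5.96 to 6.69 in MCAO 24 h, 6.33 to 7.29 in sham 72 h and 6.17 to 6.57 in MCAO 72 h. The 6 genes listed as plasmacytoid dendritic cell markers were Siglech, Ccr9, Pacsin1, Spib, Cox6a2 and Klk1. Of these, Pacsin1 fell at 24 h (-0.27) and none passed at 72 h, with list means between 5.14 and 5.44 on all arrays. Whether these genes come from those cells in whole-heart RNA was not tested, so the list mean is no measure of the cells. The part of these cells in the member values was not tested.

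**Figure D5:**
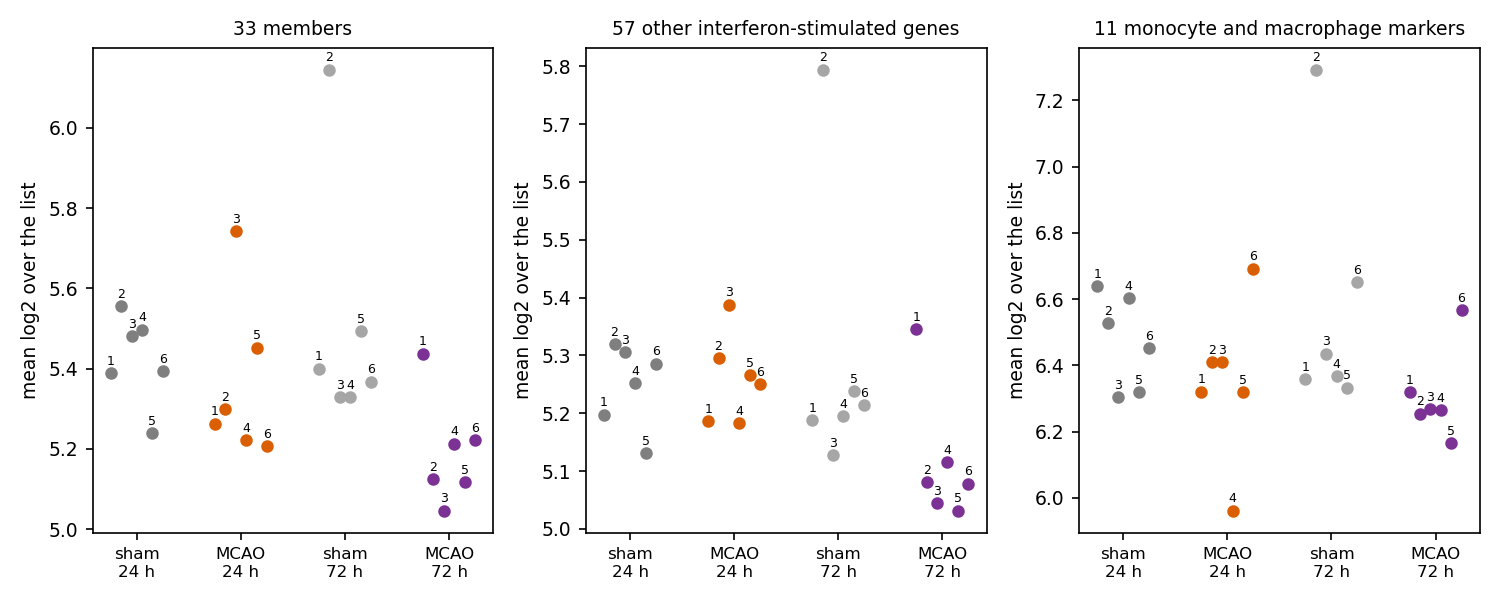
Mean log2 value per array over the 33 members, over 57 other interferon-stimulated genes and over 11 monocyte and macrophage markers (3 panels, y axes not starting at 0), with each dot an array labelled by its replicate number. Sham 72 h replicate 2 is highest in all 3 panels, at 6.14 for the members against 5.49 for the next array of its group, whereas MCAO 24 h replicate 3 is highest of its group for both interferon lists and not for the macrophage markers.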

How the data were processed

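Total RNA of mouse hearts was measured on 24 Affymetrix arrays in 4 groups of 6, taken from the sample titles and treatment labels. For the 72 h samples the description field names the earlier time, and their titles, source names and time labels were followed. The deposited table holds log2 values (24973 rows, 2.78 to 13.5, median 4.16). The log2 base was inferred from the range, and sorted values that differed between arrays by at most 0.00191 show that the authors had quantile-normalized them. HOMER appears in the submitters' processing notes with neither version nor role, and the method of summarization and the genome build are not stated in the sources at hand. No background signal was analysed here, so low values have no detection limit, and the number of arrays limits the precision.

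The platform annotation gave 1 symbol to 24015 rows and none to 958, and for 4 symbols with several rows the highest mean was kept. Differences were tested with limma 3.58.1 in R 4.3.3 (a mean per group over all 24 arrays, moderated standard errors, 20 residual degrees of freedom), adjusted by Benjamini and Hochberg's method over 24011 genes at a threshold of 0.05. The fit was tested on simulated data. The members, the 14 pathway and marker lists (189 genes, 175 measured) and the tests were chosen with earlier results of these data known. Values over the arrays are given for each member past the threshold in any comparison and, at each time, for the 4 with the most positive and the 4 with the most negative change; Ifit1, Ifitm3 and Zbp1 were added after their values were seen. From the lists, called genes were named, except that only some of the called interferon ligand genes were. Ifnb1, Ifnar1 and Ifnar2 were chosen for their role. Alternatives were a trended and robust prior, a second quantile normalization, median centring, leaving out dim genes (mean below the median gene), the mean of rows per gene, array weights, a block for replicate number, only the groups compared, each array left out, and MCAO 24 h replicates 5 and 6 left out. Deviations of same-numbered MCAO and sham arrays of one time correlated at -0.07 to 0.14 across genes. Arrays of different number were not compared in this way, so these values do not settle whether the numbers pair the samples.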

Additional observations from a re-analysis of the deposited data

Results flagged for a closer look

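A single array lay far from the other 5 of its group in 23 of 136 group checks over the members and their mean, where chance flags about 1 in 20, or 6.8. Of the 23, 18 were sham 72 h replicate 2, always as the highest. On that array Gbp2 was at 7.70, against 6.06 for the next array, Bst2 at 9.06 against 7.96, Gbp3 at 6.03 against 4.83, Lgals3bp at 9.64 against 8.40 and Stat2 at 6.91 against 5.79. Rtp4 was at 6.83, Ifit1 at 6.17, Irf7 at 5.89, Usp18 at 5.84, Parp9 at 6.41, Zbp1 at 5.0 and Irf9 at 7.01. Ifih1 was at 6.90, Ddx58 at 6.87, Herc6 at 7.03, Ifitm3 at 10.35 and Cmpk2 at 5.55. The mean of the members was 6.14, against 5.49 for the next array. The flags are not independent, since the members share the array.

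The other 5 fell on 5 different arrays. Ifitm3 was low in sham 24 h replicate 3 (9.26), Isg15 in sham 24 h replicate 5 (3.20), Herc6 in MCAO 24 h replicate 6 (4.89, against 6.26 for the next) and Ifi35 in MCAO 72 h replicate 5 (5.96). Lgals3bp was high in MCAO 72 h replicate 2 (8.39).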

How the results depend on the processing

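No member past the threshold changed sign under the alternatives run. Members short of it did: without sham 72 h replicate 2 the 72 h changes of Ifih1, Trim30a and Lgals3bp turned from below to above 0. The count of members that rose at 24 h, 1 with all arrays, was 0 without dim genes, which removed Ifit2, 3 without MCAO 24 h replicates 5 and 6, and 1 to 2 when each array was left out. The count that fell at 24 h, 3, was 1 with array weights, with only the groups compared, and without MCAO 24 h replicates 5 and 6, and 2 to 3 with single arrays left out. At 72 h the 1 fall became 6 with array weights (Bst2, Ifi27l2a, Ifitm3, Isg15, Oas2 and Parp14), 2 with only the groups compared and 1 to 2 with single arrays left out. Over all genes 285 fell at 72 h in the main fit and 197 to 952 over the settings. The 6 are therefore not read as particular to the members. For the difference between times, the 0 falls became 1 without MCAO 24 h replicates 5 and 6 and 0 to 1 with single arrays left out. Between the MCAO groups, the 1 rise became 2 with a trended and robust prior and 0 with only the groups compared (0 to 2 with single arrays left out). The 3 falls became 0 with array weights and with only the groups compared (0 to 5 with single arrays left out). They also became 0 without dim genes, which removed Ifit2 and Ifi27l2a and left Ifi35 at a limma adjusted p of 0.0567.

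With the replicate number as a block, the falls at 72 h became 0 (Bst2 adjusted p = 0.0637), Mx2 passed at 24 h (adjusted p = 0.0371) and 1 member rose and 4 fell there. With a block by number alone, chosen after seeing the data, 1 member fell between the MCAO groups. The cause of these moves was not tested.

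Counts over all genes moved too: at 24 h 1146 to 3034 rose and 1048 to 3065 fell, at 72 h 196 to 953 and 197 to 952. The spread between arrays limits what can be seen for members with standard errors near 0.2, and no signal over background was analysed here.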

Other observations

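Other cell types of the heart were measured beside the members. Over all genes 21.8% passed the threshold at 24 h and 2.35% at 72 h. Among 7 endothelial markers, Pecam1 (0.27) and Tie1 (0.46) rose and Kdr, a receptor for vascular endothelial growth factor, fell (-0.88, adjusted p = 2.59e-05) at 24 h. At 72 h Pecam1 rose by 0.29 and Kdr fell by 0.68. Among 7 fibroblast markers, Lum (-1.31), Col1a2 (-0.91) and Col1a1 (-0.83), which encode matrix proteins, fell at 24 h, and Gsn (0.39) rose at 72 h. All 7 fibroblast markers were above the mean of the other 5 arrays in sham 72 h replicate 2, by a median of 0.33.

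Among 8 cardiomyocyte markers, Myh6 (-0.33), Ttn (-0.17) and Ryr2 (-0.18) fell at 24 h and none passed at 72 h. Among 6 neutrophil markers Retnlg rose by 0.64 at 24 h, among 8 T and NK cell markers Nkg7 fell by 0.21 at 24 h, and among 5 B cell markers Ms4a1 rose by 0.20 at 24 h, whereas the other 4 were below 0 and the median was -0.12. Ighm, which encodes the heavy chain of immunoglobulin M, fell by 0.84 at 72 h (adjusted p = 0.0289), and its adjusted p was 0.081 without sham 72 h replicate 2. The calls of Ms4a1, Nkg7 and Ryr2 were lost without MCAO 24 h replicates 5 and 6, at adjusted p of 0.189, 0.101 and 0.186, and Ighm fell at 24 h in that fit (adjusted p = 0.0154, against 0.0524 with all arrays).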
